A study of Mus musculus with 3 samples.

Results

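The loci of 5 lymphoid genes, Ikzf1, Ebf1, Pax5, Rag1 and Rag2, were examined in chromatin of mouse hematopoietic stem cells. The members were the regions of 2 histone marks that overlapped 4 fixed windows of the mm9 genome, 150 kb around Ikzf1, 450 kb around Ebf1, 240 kb around Pax5 and 80 kb that hold Rag1 and Rag2 together. They numbered 168 of 248440 regions, 74 of the 93413 for H3K27ac and 94 of the 155027 for H3K4me1. The cells were bone marrow stem cells of C57BL/6 mice, sorted as SP-KSL-CD150+, and the sample titles read 24 month, taken here as the age of the animals. SP stands for side population, a dye-efflux gate, KSL for c-Kit and Sca-1 positive cells without lineage markers, and CD150 is an antigen that stem cells display. Each mark was measured by chromatin immunoprecipitation sequencing in 1 library (antibodies ab4729 for H3K27ac and ab8895 for H3K4me1), from 50000 to 100000 cells per the series' design text. An input library of the same cells was not analysed here. The labels call every library a technical replicate of a first biological replicate, which leaves no spread between samples to test against, and p-values are therefore not printed. The sorted population was not checked against marker genes, because no gene positions on mm9 were used here.

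Ikzf1 encodes Ikaros, a zinc finger protein present in stem and progenitor cells and needed for lymphocyte formation. Ebf1 and Pax5 encode transcription factors that act in sequence to specify B cells and to commit them to that lineage. Rag1 and Rag2 encode the subunits of the recombinase that rearranges antigen receptor genes in developing B and T cells. Active promoters and enhancers carry H3K27ac, whereas H3K4me1 marks enhancers and the flanks of active promoters. Sites with H3K4me1 but without H3K27ac are often called primed, a term given here as background only.

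The promoters of the 5 genes differ in their density of CpG dinucleotides, a sequence feature that the choice of windows did not use. The 150 bases before a gene start are shown, 1 start for each gene, to let that difference be seen, with each CpG in capitals. They are RefSeq sequences of GRCm38.p6, on the plus strand for Ikzf1, Ebf1 and Rag2 and on the minus strand for Pax5 and Rag1.
Ikzf1: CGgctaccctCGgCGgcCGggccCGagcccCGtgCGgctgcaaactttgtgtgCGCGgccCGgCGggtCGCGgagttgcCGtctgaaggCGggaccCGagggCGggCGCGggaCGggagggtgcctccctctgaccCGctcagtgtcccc
Ebf1: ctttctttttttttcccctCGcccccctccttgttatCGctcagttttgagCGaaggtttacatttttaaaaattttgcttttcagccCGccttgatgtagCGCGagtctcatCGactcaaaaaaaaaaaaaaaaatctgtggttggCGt
Pax5: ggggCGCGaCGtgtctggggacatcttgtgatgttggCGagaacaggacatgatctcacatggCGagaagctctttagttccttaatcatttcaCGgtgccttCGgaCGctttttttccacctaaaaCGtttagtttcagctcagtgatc
Rag1: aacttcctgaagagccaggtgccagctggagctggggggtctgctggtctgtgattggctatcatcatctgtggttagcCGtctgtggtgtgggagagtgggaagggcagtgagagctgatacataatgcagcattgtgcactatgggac
Rag2: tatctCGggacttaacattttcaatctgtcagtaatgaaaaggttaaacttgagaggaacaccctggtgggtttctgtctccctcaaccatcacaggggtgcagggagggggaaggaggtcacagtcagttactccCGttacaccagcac
In the 250 bases before the start, this Ikzf1 promoter held 44 CpG, and 0.539% of the 32851 promoters in the table held as many or more. The Pax5 promoter held 19 (19.7% of promoters held as many), the Ebf1 promoter 9 (40.3%), and the Rag1 and Rag2 promoters 3 each (71.0%), against a median of 6 over all promoters. The table lists another start for Ikzf1, with 1 CpG (92.1% of promoters held as many or more), and another for Ebf1, with 14 (29.4%). Ikzf1 thus had both the highest and the lowest number among the starts of the 5 genes. Since these starts are placed on GRCm38 and the regions on mm9, no region was assigned to a promoter.

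Motifs of blood transcription factors were counted on both strands of the same 250 bases. The RUNX motif TGTGGT occurred 2 times before Rag1 and 1 time before the Ebf1 start shown, and 14% of all promoters held it. The E-box CAGCTG occurred once before Rag1 (13% of all promoters), and the Ikaros motif TGGGAA once before Rag1 and once before the other Ebf1 start (21.6% of all promoters). None of the 3 was found before the Ikzf1, Pax5 or Rag2 starts. Matches of different motifs overlapped in 0 places. A match describes letters and is not a measured binding site.

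Ikzf1 lay in densely marked chromatin, the Rag1-Rag2 window was marked above most stretches of its length, and the Ebf1 and Pax5 windows were near the middle of all stretches of their length. In the Ikzf1 window 49 H3K27ac regions covered 20.5% of the length, against 2.24% of the autosomes. The Rag1-Rag2 window held 9 that covered 6.62%, the Ebf1 window 12 that covered 0.797% and the Pax5 window 4 that covered 0.72%. The Ebf1 and Pax5 shares were 0.356 and 0.322 of the autosomal one. H3K4me1 covered 46.5% of the Ikzf1 window (51 regions), 21.6% of the Rag1-Rag2 window (11 regions), 5.80% of the Pax5 window (10 regions) and 4.86% of the Ebf1 window (22 regions), against 6.94% of the autosomes. The order of Ebf1 and Pax5 thus differed between the marks, and their values were close for each mark.

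**Figure D1:**
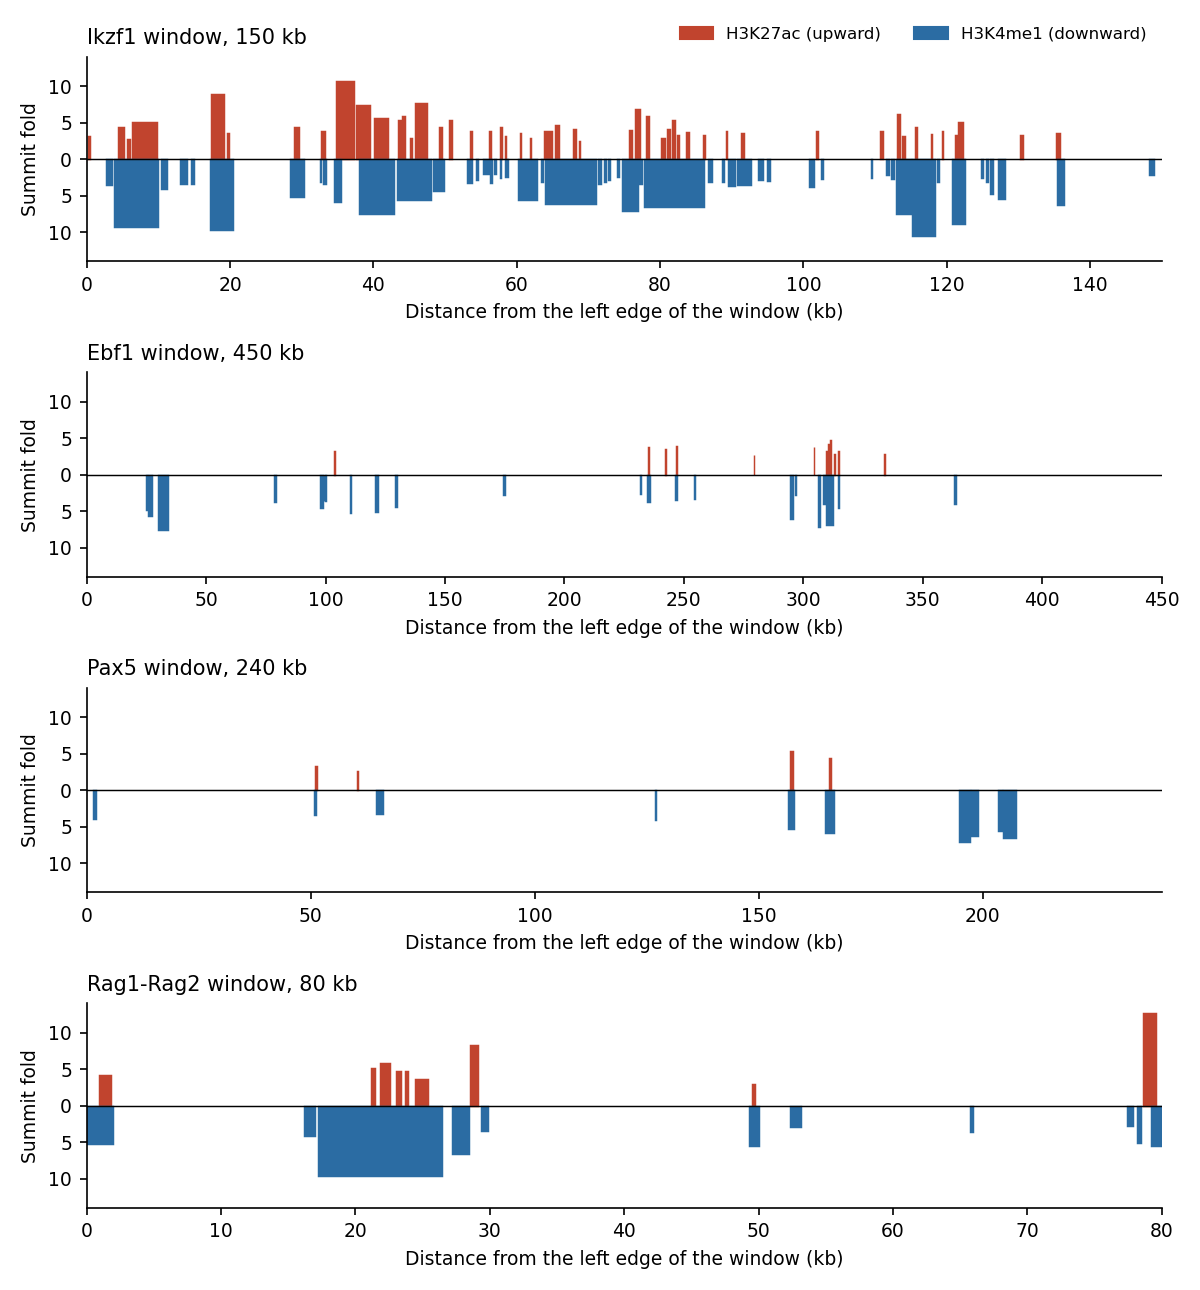
Regions of H3K27ac (red, upward) and H3K4me1 (blue, downward) in the 4 windows. The horizontal axis is the distance from the left edge of the window in kb, with a scale of its own in each panel, bar width is the width of the region and bar height is the authors' fold at its summit. Marks run through most of the Ikzf1 window, whereas the other windows hold separate groups of regions.

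The windows were set beside all consecutive autosomal stretches of the same length. Of 16471 stretches of 150 kb, 0.644% had as much H3K27ac length as the Ikzf1 window or more, and 0.68% as much H3K4me1 length. For the 80 kb Rag1-Rag2 window the shares were 10.3% and 9.43% of 30890 stretches. For the Ebf1 window they were 55.3% and 46.1% of 5482 stretches, and for the Pax5 window 51.6% and 39.1% of 10290 stretches. By number of regions the shares for H3K27ac were 0.231% (Ikzf1), 10.6% (Rag1-Rag2), 48.2% (Ebf1) and 54.4% (Pax5), and those for H3K4me1 were 0.127%, 18.1%, 48.7% and 50.1%. These shares describe where the windows fall among stretches of 1 library and are not tests. The windows were placed around genes and the stretches were not. The stretches ran over full chromosome lengths, and sequence in which no region can be called was not left out. Of the 240 kb stretches, the lower quartile held 0 H3K27ac regions.

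**Figure D2:**
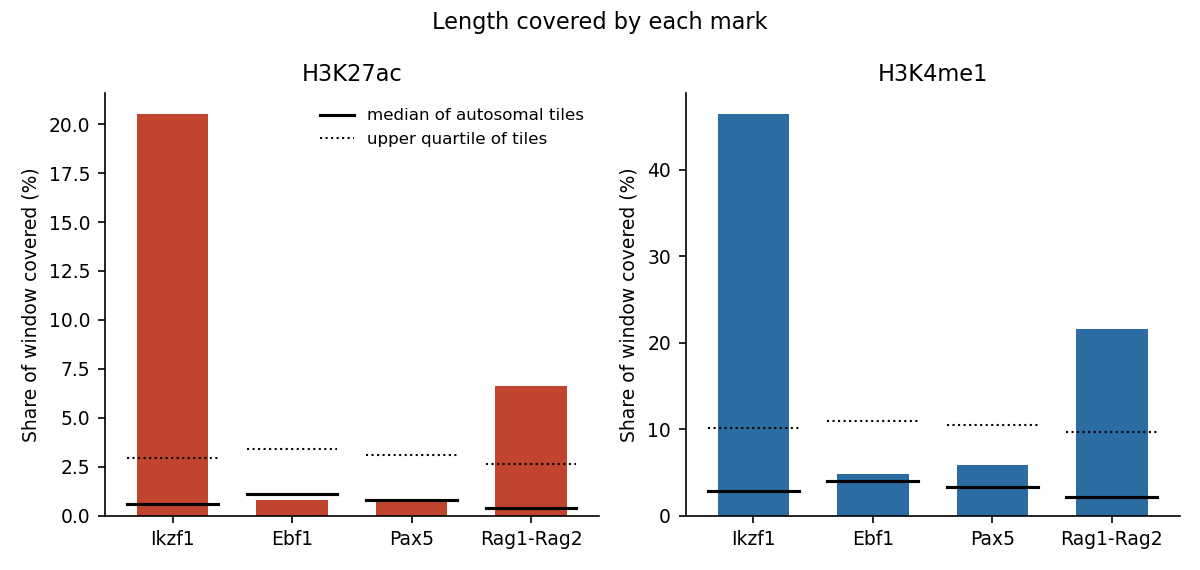
Share of each window covered by H3K27ac and by H3K4me1, in percent, with an axis of its own for each mark. Bars are the windows, and solid and dotted lines are the median and the upper quartile of all autosomal stretches of the same length. The Ikzf1 and Rag1-Rag2 bars pass the upper quartile for both marks, and the Ebf1 and Pax5 bars do not.

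Summit strength separated the windows less than the covered length did. Fold is the authors' ratio of reads at the summit to the local background. The median H3K27ac summit was 3.84-fold in the Ikzf1 window, 3.40-fold in the Ebf1 window, 3.84-fold in the Pax5 window and 4.69-fold in the Rag1-Rag2 window, against 3.86-fold over all regions (quartiles 3.25 and 5.32). For H3K4me1 the medians were 3.38-fold, 4.21-fold, 5.41-fold and 5.05-fold in the same order, against 4.12-fold over all regions (quartiles 3.16 and 5.69). All 8 medians lay within the quartiles of their mark. A deposited −log10 q of at least 5 was reached by 20 of 49 H3K27ac regions of the Ikzf1 window, 1 of 12 of the Ebf1 window, 2 of 4 of the Pax5 window and 7 of 9 of the Rag1-Rag2 window, and by 41.4% of all H3K27ac regions. For H3K4me1 the numbers were 22 of 51, 15 of 22, 9 of 10 and 7 of 11 in that order, and 63.6% of all regions.

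**Figure D3:**
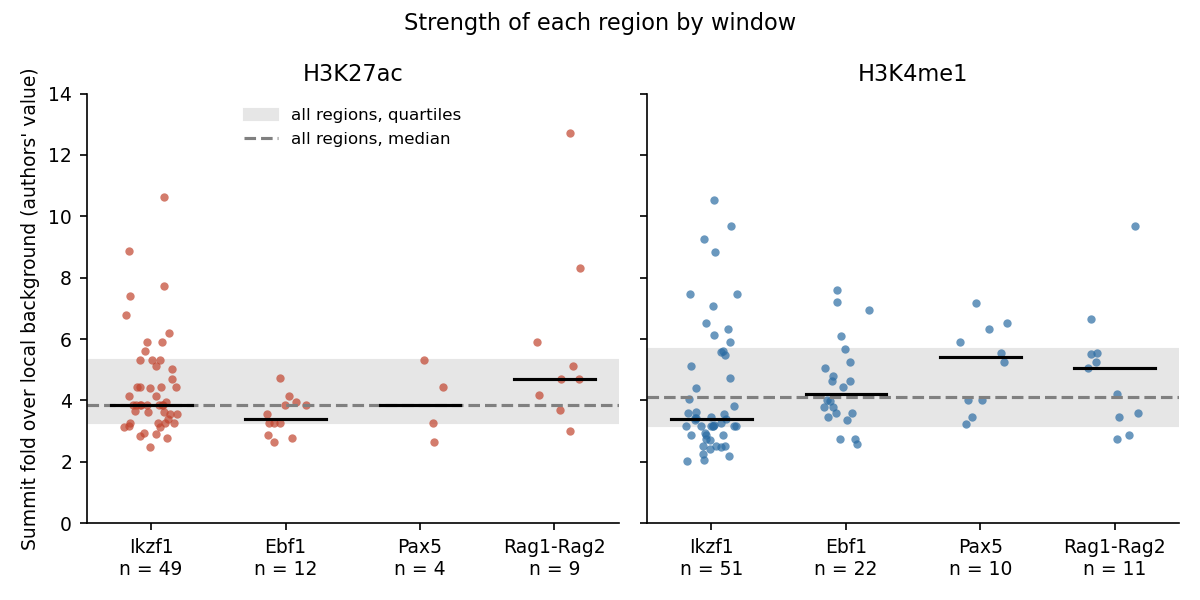
Summit fold over local background of each region, by window, for H3K27ac (left) and H3K4me1 (right). Points are regions, with n under each window, black lines are the medians of the windows, and the grey band and dashed line are the quartiles and median of all regions of the mark. Most points fall in or near the band, and those above 8-fold belong to the Ikzf1 and Rag1-Rag2 windows.

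Acetylation at Ikzf1 formed 1 continuous series. Neighbouring H3K27ac regions were joined into domains over short gaps, which in these windows bridged gaps of up to 10.1 kb and none of 19.0 kb or more. All 49 H3K27ac regions then formed 1 domain on chromosome 11 from 11550126 to 11685765, which spanned 135.6 kb, held 30.8 kb of acetylated sequence and ranked 89 of 30221 domains by acetylated length (0.294%). H3K4me1 covered 50.4% of it. Joined over gaps of up to 1 kb alone, the window held 29 separate H3K27ac regions. Acetylation was densest between 30 and 60 kb from the left edge, where it covered 39.2% of the sequence, and thinnest in the last 30 kb, where it covered 5.49%. H3K4me1 peaked farther along, with 78.6% covered between 60 and 90 kb. By covered length, the most acetylated 30 kb thus lay directly left of the 30 kb with the most H3K4me1. The numbers of summits did not follow this order. Between 30 and 60 kb there were 14 H3K27ac and 13 H3K4me1 summits, and between 60 and 90 kb 16 and 12.

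The strongest H3K27ac region of the Ikzf1 window reached 10.6-fold. It lay from 11584758 to 11587341, 36.6 kb from the left edge, was 2584 bp wide and had 35 reads at its summit (exact 95% Poisson interval 24.4 to 48.7). It met an H3K4me1 region, but its summit lay outside H3K4me1. The next regions lay from 11567344 to 11569204 (8.86-fold, 29 reads), from 11595762 to 11597495 (7.73-fold, 27 reads), from 11587534 to 11589554 (7.39-fold, 24 reads) and from 11626451 to 11627182 (6.80-fold, 22 reads). Of these 4, the last had its summit outside H3K4me1. The widest acetylated region, from 11556340 to 11559851, was 3512 bp wide with a summit of 5.10-fold. The whole library reached 43.4-fold, and 6.92% of all H3K27ac regions were as strong as the strongest of this window.

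The strongest H3K4me1 summits of the Ikzf1 window lay 7.99 to 39.6 kb and 114.0 to 121.2 kb from the left edge. The highest summit was 10.5-fold with 49 reads (interval 36.3 to 64.8), from 11665184 to 11668325, 115.8 kb from the left edge, and 0.731% of all H3K4me1 regions were as strong. It met 2 H3K27ac regions, the stronger of them 4.43-fold. Then came regions from 11567264 to 11570424 (9.69-fold), from 11553804 to 11559930 (9.27-fold) and from 11670751 to 11672480 (8.85-fold). The regions from 11588027 to 11592928 and from 11662890 to 11664963 followed with 7.48-fold each. The widest region, from 11627768 to 11636135, spanned 8368 bp, had a summit of 6.53-fold and met 7 H3K27ac regions. The longest stretch with neither mark, from 11686421 to 11698235, measured 11.8 kb.

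The Ebf1 window held about as many H3K27ac regions as the median stretch of 450 kb (12 against 11), with a highest fold below that of the other windows. Its 12 H3K27ac regions ran from 2.66-fold to 4.73-fold with 8 to 15 summit reads, against a median of 13 and a lowest value of 8 over the library, and 3 of the 12 reached the median fold of all H3K27ac regions. The strongest lay on chromosome 11 from 44711019 to 44711504 (4.73-fold, 15 reads, interval 8.40 to 24.7). The strongest Ikzf1 region had 35 reads (interval 24.4 to 48.7). Both summits were picked as the highest of their window, which the intervals do not allow for, and their difference was not tested. Next in the Ebf1 window were regions from 44710408 to 44710604 (4.14-fold), from 44646732 to 44646968 (3.96-fold), and from 44634924 to 44635248 and 44704291 to 44704526 (3.84-fold each). The widest region measured 548 bp, from 44642122 to 44642669. Of the 12 regions, 6 fell in a stretch of 10.6 kb from 44704291 to 44714843 that held 50.9% of the acetylated length, and 3 in another of 12.0 kb from 44634924 to 44646968.

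H3K4me1 at Ebf1 reached higher folds than the acetylation and lay partly elsewhere. Folds do not compare the strength of the marks, since each mark has its own library and background. The strongest H3K4me1 region, from 44429805 to 44434175, reached 7.58-fold with 35 reads (interval 24.4 to 48.7), was 4371 bp wide and was the widest of the window. It formed a group of 3 with its neighbours from 44424690 to 44425354 and from 44425665 to 44427481 (5.69-fold), and the nearest H3K27ac region, 29597 to 34712 bp away, lay outside the window to the left. The next regions lay from 44706162 to 44706947 (7.21-fold, no H3K27ac), from 44709600 to 44712199 (6.95-fold, 3 H3K27ac regions) and from 44694548 to 44695708 (6.11-fold, no H3K27ac). Among the strongest 4, the region of 6.95-fold alone carried acetylation, and it held the strongest acetylation of the window. The last 86.2 kb of the window, from 44763834 onwards, held neither mark.

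Pax5 had the fewest acetylated regions of the 4 windows. The 4 H3K27ac regions lay on chromosome 4 from 44571078 to 44571330 (3.25-fold, 10 reads), from 44580272 to 44580479 (2.66-fold, 8 reads), from 44676916 to 44677694 (5.32-fold, 17 reads, interval 9.90 to 27.2) and from 44685730 to 44686217 (4.43-fold, 14 reads). The first, the third and the fourth had their summits inside H3K4me1. The second was at the lowest read number called in the library. The third and the fourth made up 73.3% of the acetylated length of the window.

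The strongest H3K4me1 regions at Pax5 carried no H3K27ac. A group of 4 lay from 44714705 to 44727417, spanned 12.7 kb and held 7.76 kb of H3K4me1, with no H3K27ac region in it. Its members lay from 44714705 to 44717171 (7.16-fold, 33 reads, interval 22.7 to 46.3), from 44717424 to 44719064 (6.32-fold), from 44723462 to 44724229 (5.56-fold) and from 44724535 to 44727417 (6.53-fold). Those with acetylation lay from 44684860 to 44686759 (5.90-fold), from 44676594 to 44677820 (5.27-fold) and from 44570649 to 44571228 (3.45-fold). The remaining regions, from 44521373 to 44522017 (4.0-fold), from 44584623 to 44586209 (3.23-fold) and from 44646774 to 44647005 (4.03-fold), met no acetylation either. Between the groups, 60.6 kb from 44586210 to 44646773 held neither mark.

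The Rag1-Rag2 window held 1 group of acetylated regions on a wide H3K4me1 region and the strongest acetylated summit of all 4 windows at its right edge. The strongest lay on chromosome 2 from 101518593 to 101519582, reached 12.7-fold with 42 reads (interval 30.3 to 56.8) and lay 78.9 kb into the 80 kb window. The strongest Ikzf1 region had 35 reads (interval 24.4 to 48.7), and the difference between these picked summits was not tested. The Rag1-Rag2 region met an H3K4me1 region, and its summit lay outside H3K4me1. In the RefSeq gene table, which is on GRCm38, Traf6 follows Rag1 and Iftap precedes Rag2 among protein-coding genes, and which gene start lies nearest to this region on mm9 was not determined. Traf6 encodes a signalling adaptor and ubiquitin ligase of innate immune receptors.

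The group lay from 101461130 to 101469116, spanned 7.99 kb, and its 6 H3K27ac regions held 60.05% of the acetylated length of the window. Of the 6, 5 lay inside the widest H3K4me1 region of the window. They ran from 101461130 to 101461420 (5.12-fold, 18 reads), from 101461844 to 101462587 (5.91-fold, 19 reads), from 101463054 to 101463421 (4.69-fold, 17 reads), from 101463682 to 101463914 (4.69-fold, 16 reads) and from 101464469 to 101465430 (3.69-fold, 13 reads). That H3K4me1 region, from 101457246 to 101466458, was 9213 bp wide and reached 9.69-fold with 45 reads (interval 32.8 to 60.2), and 1.61% of all H3K4me1 regions were as strong. The sixth was the strongest of the group, from 101468535 to 101469116 (8.30-fold, 28 reads, interval 18.6 to 40.5). It met no H3K4me1, lay 60 bp from the nearest H3K4me1 region, and had H3K4me1 at 1 kb on both sides of its summit.

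The other 2 acetylated regions of the Rag1-Rag2 window lay from 101440915 to 101441803 (4.18-fold, 17 reads) and from 101489515 to 101489751 (3.02-fold, 12 reads), both with the summit inside H3K4me1. Other strong H3K4me1 regions lay from 101467151 to 101468474 (6.66-fold, no H3K27ac), from 101489286 to 101490066 (5.55-fold), from 101519179 to 101520939 (5.50-fold) and from 101439986 to 101441958 (5.27-fold). The third and the fourth of these cross a window edge. The longest stretch with neither mark, 19.4 kb, ran from 101469864 to 101489285. The local background was more than 5% above the genome-wide level at 6 of the 9 H3K27ac summits here, 15 of 49 at Ikzf1, 3 of 12 at Ebf1 and 0 of 4 at Pax5, and at 26.2% of all H3K27ac summits. For H3K4me1 the numbers were 4 of 11, 30 of 51, 6 of 22 and 3 of 10 in that order, and 36.8% of all summits. Without such summits in either list the Rag1-Rag2 window kept 3 H3K27ac and 7 H3K4me1 regions, and the Ikzf1 window 34 and 21.

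Most acetylated regions of the Ikzf1 and Rag1-Rag2 windows met H3K4me1 in the full lists. A minority did in the setting that cleared both lists of summits with a raised local background. That setting also took 30 of the 51 H3K4me1 regions at Ikzf1 and 4 of the 11 at Rag1-Rag2 out as partners. Of the H3K27ac regions, 42 of 49 met H3K4me1 by at least 1 bp in the Ikzf1 window (85.7%, exact Clopper-Pearson 95% interval 72.8 to 94.1%), 8 of 9 in the Rag1-Rag2 window (88.9%, 51.8 to 99.7%), 3 of 4 in the Pax5 window (75%, 19.4 to 99.4%) and 6 of 12 in the Ebf1 window (50%, 21.1 to 78.9%). Over all H3K27ac regions the share was 71.7%, which lay below the Ikzf1 interval and inside the other 3. Without raised summits in either list, the share was 26.5% at Ikzf1 (9 of 34) and 33.3% at Rag1-Rag2 (1 of 3), against 50.2% of all H3K27ac regions. When raised summits were left out of the H3K27ac list alone, with all H3K4me1 regions kept as partners, an alternative added with the results in view, it was 79.4% at Ikzf1 (27 of 34) and 66.7% at Rag1-Rag2 (2 of 3), against 70% of all. With equal numbers of regions in both lists it was 75.5% at Ikzf1 (37 of 49), against 65.3% of all. At a −log10 q of at least 5 the Ikzf1 share was 90% (18 of 20), against 85.3% of all. At 10 it was 100% (6 of 6), against 78.6% of all. In these settings the Ikzf1 share lay above that of all regions, except without raised summits in either list, where it lay below. The acetylation summit itself lay inside H3K4me1 in 36 of 49, 7 of 9, 3 of 4 and 6 of 12 regions in that order, and in 58.2% of all regions. The 7 acetylated regions without H3K4me1 at Ikzf1 lay 38 to 2231 bp from the nearest one. Intervals cover counting error over regions of 1 library only, and neighbouring regions are not independent.

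In the other direction, 23 of 51 H3K4me1 regions met H3K27ac in the Ikzf1 window (45.1%, interval 31.1 to 59.7%), 4 of 11 in the Rag1-Rag2 window (36.4%, 10.9 to 69.2%), 3 of 10 in the Pax5 window (30%, 6.67 to 65.2%) and 4 of 22 in the Ebf1 window (18.2%, 5.19 to 40.3%). The share over all H3K4me1 regions was 33.6% and lay inside each of the 4 intervals. The Ikzf1 share was 72.7% with equal numbers of regions (48.1% of all) and 77.8% with regions joined over 1 kb (39.5% of all). Within 1 kb it was 72.5% at Ikzf1 and 72.7% at Rag1-Rag2, against 46.1% of all. By length, H3K27ac covered 0.442 bp for each bp of H3K4me1 in the Ikzf1 window, 0.306 in the Rag1-Rag2 window, 0.164 in the Ebf1 window and 0.124 in the Pax5 window, against 0.322 on the autosomes. The acetylated length behind these ratios was 30.8, 5.30, 3.59 and 1.73 kb. The H3K4me1 library had the deeper background, 3.75 reads at a summit against 2.38 for H3K27ac, and the part of this difference in the ratios was not tested.

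**Figure D4:**
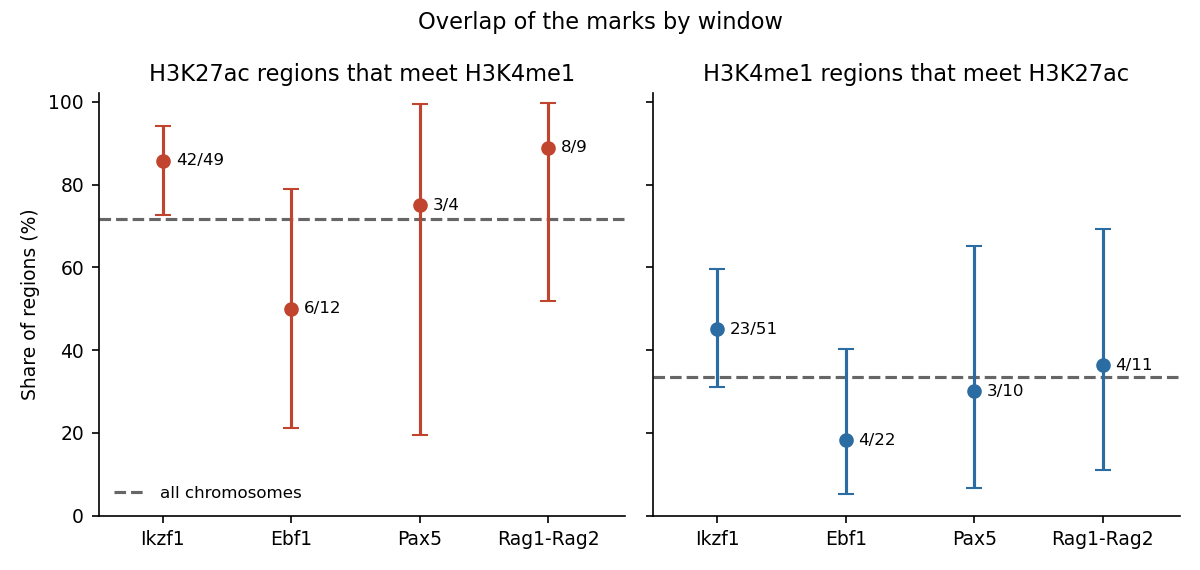
Share of H3K27ac regions that meet H3K4me1 (left) and of H3K4me1 regions that meet H3K27ac (right), in percent, by window. Points carry exact 95% binomial intervals and the numbers of regions, and the dashed line is the share over all chromosomes. The lower bound of the Ikzf1 interval on the left lies above the line, and every other interval crosses it.

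The acetylation of the strongest H3K4me1 regions was counted in each window. At 6-fold or more, a limit chosen after the values were seen, all 10 H3K4me1 regions of the Ikzf1 window met H3K27ac, as did 1 of 2 in the Rag1-Rag2 window, 1 of 4 in the Ebf1 window and 0 of 3 in the Pax5 window. Over all chromosomes 71.2% of the 32089 H3K4me1 regions of that strength met H3K27ac. The Pax5 count depends on the limit, since the acetylated region of 5.90-fold lies just under it. In the Ikzf1 window median summit and width were 5.60-fold and 1921 bp for the 23 H3K4me1 regions that met H3K27ac. They were 3.16-fold and 378 bp for the 28 without it. Since sharing 1 bp counted as meeting, wider regions had more room to meet, and the part of this rule in the widths was not tested. The summit medians at Rag1-Rag2 had the same order, 5.52-fold for the 4 with and 3.58-fold for the 7 without. At Pax5 the order of the medians was the other way, 5.27-fold for the 3 with and 5.56-fold for the 7 without. At Ebf1 both medians were 4.21-fold, over 4 and 18 regions. These counts are small, and the difference between windows was not tested.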

How the data were processed

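Peak lists of 1 H3K27ac and 1 H3K4me1 library were used as deposited. Per the submitters' processing notes, Bowtie2 2.0.6, MACS2 2.0.10.20131216 and build mm9 were used. Caller options, its control and read filters are not given in the sources used here. Each deposited list holds, per peak, the authors' fold (a ratio of summit to local background), −log10 p, −log10 q and a score (−log10 q times 10, not used). Groups come from the sample titles. Peaks are counted from 1 on mm9.

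A region belonged to a window if at least 1 bp lay inside. Windows, genes and gene lists were chosen with earlier results of these data known. Every region was named in windows with 10 or fewer of a mark, otherwise the 5 of highest fold, with ties, and the widest. Marks met if they shared 1 bp. Chromosome lengths for consecutive stretches came from GenomeInfoDb 1.38.1.

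Summit reads were recovered from the authors' fold and −log10 p, taking fold as (reads + 1)/(background + 1) and p as the Poisson probability of more reads. A whole number matched the deposited −log10 p within 0.001 for 100% of summits of both lists. On simulated data made with the same formulas, 100% of 93413 and 155027 summits were returned, which checks the calculation and not the formulas. Totals of reads per library are unknown.

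Alternatives changed the q limit, window edges, membership, joining, list size, background and overlap rule. Planned comparisons with gene start sites and marker genes were not made, since the gene table is on GRCm38. Computations used Python 3.11.15 with scipy 1.17.1, numpy 2.4.6 and pandas 2.3.3, and plots matplotlib 3.10.9.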

Additional observations from a re-analysis of the deposited data

How the results depend on the processing

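Of 134 alternative values, 40 moved, 25 of 56 counts by a factor over 1.5 and 15 of 78 shares out of their counting interval. These intervals are wide in windows with few regions, so a share there could change much without being counted as moved. At Pax5 the share of H3K27ac regions with H3K4me1 went from 75% to 50% with equal numbers of regions, inside its interval of 19.4 to 99.4%. None moved with the summit required inside the window, with 50% of the shorter region shared, or with raised summits left out of the counted regions only, which was chosen after seeing the data. At a −log10 q of at least 5, H3K27ac regions numbered 20 at Ikzf1, 1 at Ebf1 and 2 at Pax5, and H3K4me1 regions 22 at Ikzf1 and 7 at Rag1-Rag2. The share of H3K27ac regions with H3K4me1 was 100% at Ebf1 and at Pax5, against 85.3% of all. At 10, H3K27ac regions numbered 6 at Ikzf1, 0 at Ebf1, 0 at Pax5 and 2 at Rag1-Rag2, and H3K4me1 regions 15, 6, 6 and 5 in that order. The share of H3K27ac regions with H3K4me1 was then 100% at Ikzf1 and 50% at Rag1-Rag2, against 78.6% of all. That of H3K4me1 regions with H3K27ac was 0% at Ebf1 and at Pax5, where no H3K27ac region was left, against 28.3% of all. With equal numbers of regions in both lists, H3K4me1 regions numbered 22 at Ikzf1 and 7 at Rag1-Rag2, and the share with H3K27ac at Ikzf1 was 72.7% (48.1% of all). Without summits of raised local background, H3K4me1 regions numbered 21 at Ikzf1 and 7 at Rag1-Rag2, and H3K27ac regions 3 at Rag1-Rag2. The share of H3K27ac regions with H3K4me1 was 26.5% at Ikzf1 and 33.3% at Rag1-Rag2, against 50.2% of all. This setting takes partners out of both lists. Joining over 1 kb left 29 H3K27ac and 18 H3K4me1 regions at Ikzf1 and 5 and 6 at Rag1-Rag2. The share of H3K4me1 regions with H3K27ac was 77.8% at Ikzf1 (39.5% of all). That of H3K27ac regions with H3K4me1 was 100% at Rag1-Rag2 (68.3% of all). Windows 50 kb wider on each side held 21 H3K27ac regions at Ebf1, 14 at Rag1-Rag2 and 22 H3K4me1 regions at Pax5. Within 1 kb, 95.9% (Ikzf1) and 100% (Rag1-Rag2) of H3K27ac regions lay near the other mark, against 81.6% of all. For H3K4me1 regions the shares were 72.5% and 72.7%, against 46.1% of all. The cause of the moves was not tested beyond these constructions. In each setting that gave region counts, the Ikzf1 window held more H3K27ac and more H3K4me1 regions than each of the other windows. The closest case was H3K4me1 joined over 1 kb, with 18 at Ikzf1 and 17 in the longer Ebf1 window. No paired analysis was possible because there was 1 library for each mark. No H3K27ac summit under 8 reads was called, and whether weaker acetylation lay at the H3K4me1 regions without H3K27ac was not detectable in the lists.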

Other observations

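The 50 kb on either side of the windows were counted by summit, a choice made after the data had been seen. Right of the Pax5 window, 1 H3K27ac region on chromosome 4 from 44768532 to 44770237 reached 17.7-fold with 59 reads, above every H3K27ac region inside the 4 windows, and 12 H3K4me1 regions covered 13.4% of the flank. Left of the Pax5 window neither mark had a region. In the RefSeq gene table, on GRCm38, Melk and Zcchc7 are the protein-coding neighbours of Pax5, and neither was placed on mm9 here.

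Left of the Ebf1 window, 8 H3K27ac regions covered 17.4% of the flank, against 0.797% of the window itself, and the strongest, on chromosome 11 from 44357252 to 44361329, reached 10.9-fold. Right of the Ebf1 window, 1 H3K27ac region reached 3.25-fold. On GRCm38, Rnf145 and Clint1 are the protein-coding neighbours of Ebf1, and which gene these regions belong to was not determined. Marking went on to the right of the Ikzf1 window, with 6 H3K27ac regions (7.88% of the flank, highest 8.16-fold) and 13 H3K4me1 regions (30.2%). To its left there were 0 H3K27ac regions and 1 H3K4me1 region of 3.605-fold. Beside the Rag1-Rag2 window, the left flank had 0 and the right flank 5 H3K27ac regions, the strongest 4.14-fold.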
